A study of Mus musculus with 10 samples.

Results

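The clustered protocadherins are the alpha, beta and gamma genes that lie in tandem on mouse chromosome 18. They were taken here as every gene model on chromosome 18 whose symbol in the deposited table names a numbered protocadherin alpha, beta, gamma A, gamma B, gamma C or alpha C gene. This gave 53 of the 42465 gene models: 9 in the alpha cluster, 22 in the beta cluster and 22 in the gamma cluster. RNA was measured in neural tube explants, with their neural crest cells, taken from mouse embryos on embryonic day 9.5 and cultured for 4 days. There were 5 libraries from Ednrb-/- explants and 5 from wild-type (WT) explants, which the labels call biological replicates. Every culture of both genotypes received DMEM with 10% fetal bovine serum and 20 nM endothelin 3 (EDN3), the ligand of the receptor that Ednrb encodes. The sources used here do not give the design of the Ednrb allele or say whether embryos were pooled.

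Clustered protocadherins are cadherin-like adhesion proteins, best known from neurons, that bind the same isoform on a facing membrane. In the alpha and gamma clusters each variable exon has its own promoter and is spliced to constant exons shared by the whole cluster, whereas beta genes carry no shared constant exons. Each neuron transcribes its own subset of variable exons, a choice that involves CTCF, cohesin and DNA methylation of the promoters, while the C-type exons at the ends of the alpha and gamma clusters are transcribed more broadly. In mice the family serves recognition of a neuron's own branches, and gamma isoforms support the survival of spinal cord interneurons.

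Ednrb itself had 5.89, 11.7, 7.83, 8.01 and 2.34 FPKM (fragments per kilobase of gene model, scaled by a divisor per library near its read total) in the Ednrb-/- libraries. In the WT libraries it had 55.6, 55.4, 45.8, 43.8 and 60.7 FPKM. Its mean was 7.15 ± 3.41 FPKM in Ednrb-/- and 52.3 ± 7.16 FPKM in WT (SD, n = 5 each), and its log2 fold change was -2.92 (exact two-sided permutation test, p = 0.00794, below which 5 against 5 libraries cannot go). The genotypes did not overlap, which fits the labels. Libraries held 13022266 to 19532570 reads in Ednrb-/- and 13856545 to 16522842 reads in WT, recovered from FPKM and model length. The 53 protocadherin genes together took 6448 to 8314 of those reads per Ednrb-/- library and 6007 to 7329 per WT library. Ednrb-/- replicate 2 stood apart: it had the fewest reads and the fewest genes above 0 (16399, against 17895 to 23240 in the other 9 libraries). It was the highest or the lowest of the 5 Ednrb-/- libraries for 33 of the 53 genes. The other Ednrb-/- libraries were so for 17 to 20 genes. Each WT library was the highest or the lowest of the 5 WT libraries for 9 to 28 genes.

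In the coordinates of the deposited table, all 3 clusters lie on the plus strand of chromosome 18. The alpha genes run from 36588628 to 36867652, the beta genes from 36953896 to 37220984 and the gamma genes from 37355861 to 37559702. The alpha models share 2 end positions and the gamma models share 2, whereas the 22 beta models have 22 different ends. In the GENCODE M21 annotation, the share of a gene's exonic length that it has in common with another gene of its cluster has a median of 53.5% for alpha, 44.8% for gamma and 0% for beta. The sources used here do not give how reads on shared exons were assigned, so alpha and gamma levels cannot be set against beta levels as if they were counted alike. Pcdhga10 shares 2119 of its 4732 exonic bases, yet had 0 to 13 reads per Ednrb-/- library. Pcdhgc3, which also shares 2119 bases, had 350 to 615 reads per Ednrb-/- library. Reads on the shared gamma exons were thus not counted in full for every gene that holds them. The gene models Gm38182, Gm37013, Gm37388 and MGP_C57BL6NJ_G0024705 end within the gamma cluster and are listed at 0 in all 10 libraries. Which exons these models hold was not examined. Beta genes are close paralogs of each other, and reads matching several of them may have been lost or split.

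Most of the family was transcribed at a low level. In 46 of the 53 genes the mean was under 3 FPKM in both genotypes. A gene entered the test where it had at least 0.5 FPKM in at least 5 of the 10 libraries, and 45 of the 53 did. Below that limit were Pcdha1, Pcdhac1, Pcdhb1, Pcdhb12, Pcdhb13, Pcdhb14, Pcdhga10 and Pcdhgc5. The highest levels, in FPKM and so per length, belonged to Pcdhgc3, Pcdhgb6, Pcdhb17, Pcdhga3, Pcdhb20 and Pcdhga2. Ranks of gamma genes against beta genes depend on how reads on shared exons were counted, which is not given.

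Between genotypes, 1 clustered protocadherin rose in Ednrb-/- explants, the beta gene Pcdhb20, and 1 fell, the C-type gene Pcdhgc3. Genes were called at a Benjamini-Hochberg adjusted p under 0.05 in limma, fitted to log2(FPKM + 0.5) over 15156 genes. The 2 calls among 45 tested members stand against 19.5% of all genes called in either direction, 6.53% higher and 13.0% lower. In 6 of the 45 members the genotypes did not overlap, a share of 13.3% against 13.2% of all genes. An unadjusted p under 0.05 was reached by 8 of the 45, against 33.1% of all genes. The family's median log2 fold change was 0.12, against 0.00 for all genes tested. On the log2(FPKM + 0.5) scale, 43 of the 45 members lay within 1.5-fold of no change (95.6%). The share was 82.0% of all genes and 76.1% of the 7248 genes with a mean FPKM in the same range as the members. That scale understates the fold changes of low genes. Ratios of mean FPKM were 1.64 for Pcdhb6, 1.61 for Pcdhb10, 1.53 for Pcdhb21 and 1.502 for Pcdhb3, which are all among the 43.

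**Figure D1:**
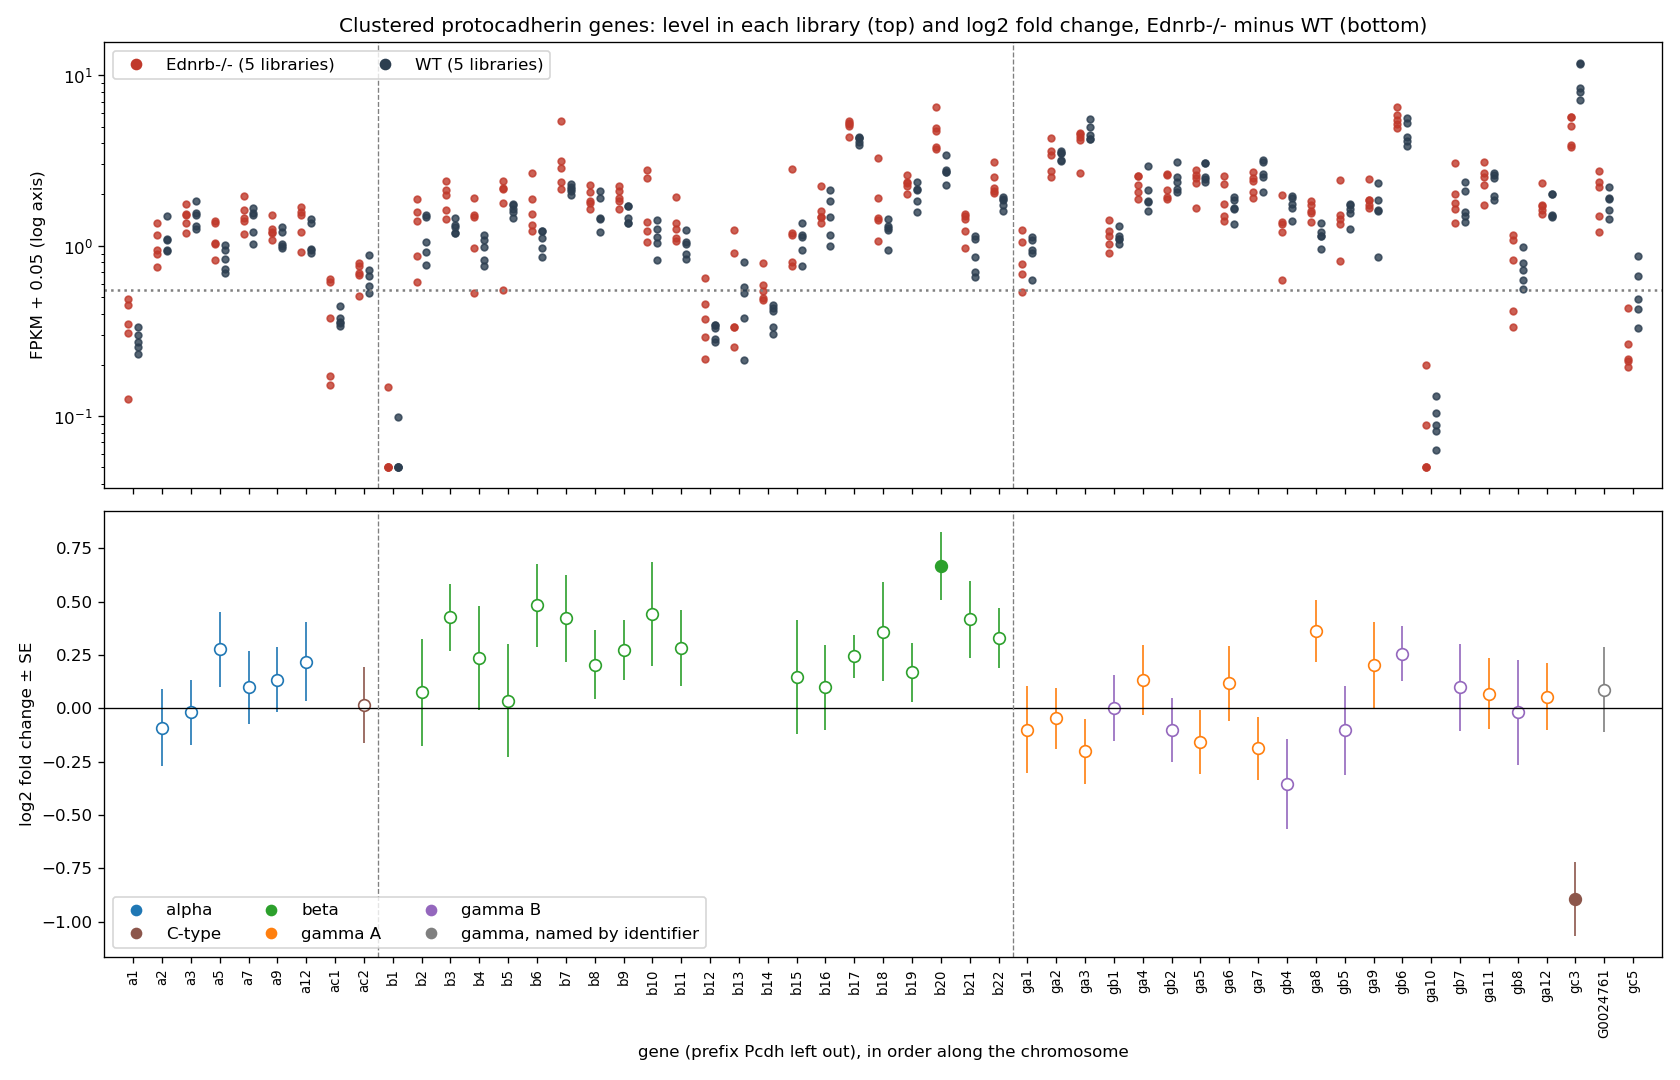
The upper plot gives FPKM + 0.05 on a log axis for each of the 53 genes in chromosome order, with Ednrb-/- libraries as red points left of the WT libraries in dark blue, and the dotted line marks the limit of 0.5 FPKM for testing. The lower plot gives the log2 fold change of Ednrb-/- over WT, on the log2(FPKM + 0.5) scale, with its standard error for the 45 tested genes, where filled points mark an adjusted p under 0.05: all 18 beta genes lie above 0 and Pcdhgc3 lies lowest, at -0.90.

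Pcdhgc3 encodes a C-type gamma isoform, transcribed in many cell types of the nervous system and also outside it. Its model (MGP_C57BL6NJ_G0024760) lies at 18:37521091-37559702. It had 5.65, 4.97, 3.84, 5.68 and 3.74 FPKM in the Ednrb-/- libraries, against 7.91, 8.43, 11.65, 7.08 and 11.83 FPKM in the WT libraries. Every Ednrb-/- library lay below every WT library, and WT replicates 3 and 5 lay highest. The mean was 4.78 ± 0.94 FPKM in Ednrb-/- and 9.38 ± 2.21 FPKM in WT (SD, n = 5 each), a ratio of 0.509. Pcdhgc3 fell by 0.90 on the log2 scale (SE 0.17, 95% interval -1.28 to -0.51, limma adjusted p = 0.00593, exact two-sided permutation p = 0.00794). Without Ednrb-/- replicate 2 its log2 fold change was -0.91 (limma adjusted p = 0.0129). Under 19 alternative settings that log2 fold change lay between -0.98 and -0.80, with adjusted p from 0.00429 to 0.0371. The antisense model BC037039 overlaps it over 1559 bases and had 0.859 ± 0.504 FPKM in Ednrb-/- and 0.683 ± 0.101 FPKM in WT. A strand setting for counting is not named in the labels or notes.

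Pcdhgc3 had the highest FPKM of the family in all 5 WT libraries. In Ednrb-/- it led in replicates 1 and 4, Pcdhgb6 led in replicates 2 and 3, and Pcdhb17 led in replicate 5. Ranks of these gamma genes against Pcdhb17, a beta gene, depend on how reads on shared exons were counted. Pcdhgc3 made up 8.39% to 13.0% of the summed gamma FPKM in Ednrb-/- libraries and 16.4% to 21.5% in WT libraries. Its share of the gamma sum therefore did not overlap between genotypes. The means of that share were 10.5% ± 1.93 in Ednrb-/- and 18.7% ± 2.47 in WT (SD, n = 5 each).

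The other C-type genes were transcribed at far lower levels than Pcdhgc3. Pcdhgc5, the last gene of the gamma cluster, had 0.166, 0.161, 0.143, 0.379 and 0.216 FPKM in Ednrb-/- and 0.438, 0.280, 0.826, 0.377 and 0.612 FPKM in WT. These values rest on 16 to 47 reads per Ednrb-/- library and 33 to 99 reads per WT library. Ednrb-/- replicate 4 lay within the WT range, and the other 4 Ednrb-/- libraries lay below it (exact two-sided permutation p = 0.0238 for 5 against 5, not adjusted). Pcdhgc5 was below the limit for the main test. Its limma adjusted p was 0.0894 with a limit of 0.1 FPKM, 0.115 with no limit and 0.0524 by voom on recovered reads, and none of these passed 0.05.

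At the end of the alpha cluster, Pcdhac2 averaged 0.634 ± 0.110 FPKM in Ednrb-/- and 0.625 ± 0.138 FPKM in WT (log2 fold change 0.01, adjusted p = 0.970 by limma). Pcdhac1 averaged 0.341 ± 0.233 FPKM in Ednrb-/- and 0.322 ± 0.042 FPKM in WT, from 11 to 54 reads and 22 to 35 reads per library (exact two-sided permutation p = 0.929, n = 5 each). The table names a second model Pcdhga8, although that model (MGP_C57BL6NJ_G0024761, 18:37529759-37559702) lies between Pcdhgc3 and Pcdhgc5 and its description cites a human gamma-C4 protein. It averaged 1.95 ± 0.631 FPKM in Ednrb-/- and 1.76 ± 0.294 FPKM in WT (log2 fold change 0.09, limma adjusted p = 0.800). It shares its end with Pcdhgc3 and did not pass the test in either direction.

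**Figure D2:**
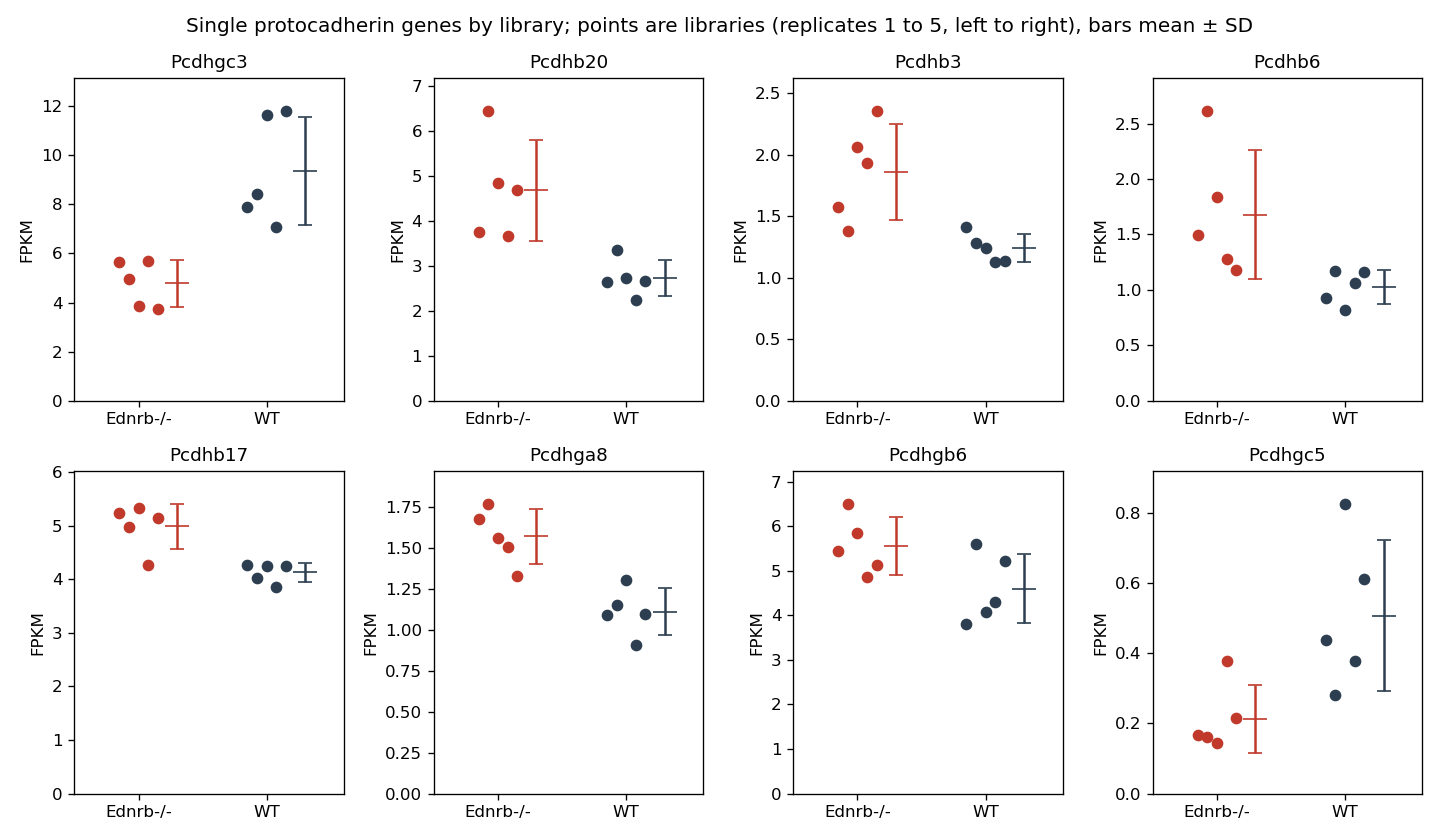
FPKM of 8 genes in each library, with Ednrb-/- in red left of WT in dark blue, replicates 1 to 5 from left to right and bars for the mean ± SD. Pcdhgc3 is lower and Pcdhb20 higher in every Ednrb-/- library than in any WT library, whereas Pcdhb3, Pcdhgb6 and Pcdhgc5 overlap between genotypes.

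Beta genes encode adhesion proteins without the constant cytoplasmic domain of the alpha and gamma proteins. Pcdhb20 (MGP_C57BL6NJ_G0024737, 18:37199882-37204180) was the single beta gene called. It had 3.75, 6.45, 4.83, 3.66 and 4.69 FPKM in the Ednrb-/- libraries, against 2.64, 3.36, 2.72, 2.23 and 2.66 FPKM in the WT libraries. The genotypes did not overlap, and Ednrb-/- replicate 2 and WT replicate 2 were the highest of their genotypes. The mean was 4.68 ± 1.12 FPKM in Ednrb-/- and 2.72 ± 0.404 FPKM in WT (SD, n = 5 each), a ratio of 1.72. Pcdhb20 rose by 0.67 on the log2 scale (SE 0.16, 95% interval 0.31 to 1.02, limma adjusted p = 0.0148, exact two-sided permutation p = 0.00794). Without Ednrb-/- replicate 2 it was 0.55 (limma adjusted p = 0.0249), the lowest of the 19 alternatives, which lay between 0.55 and 0.81 with adjusted p from 0.00254 to 0.0445.

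Fitted differences of the 18 tested beta genes were all above 0, from 0.04 to 0.67 on the log2 scale with a median of 0.28, where 50.7% of all genes tested lay above 0. Only Pcdhb20 among them passed the test, and a difference above 0 in a gene that did not pass is not a call. Leaving out 1 library at a time kept 16 to 18 of the 18 above 0, with 16 without Ednrb-/- replicate 3 or without WT replicate 4. The median of the beta genes lay 0.21 to 0.38 above the median of all genes over the alternatives. These genes share neighbours, sequence and libraries, so they are not independent of each other.

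In 4 of the 18 tested beta genes (22.2%), Pcdhb20, Pcdhb6, Pcdhb17 and Pcdhb22, the genotypes did not overlap. The share was 13.2% of all genes tested and 11.9% of genes in the members' range of mean FPKM. Pcdhb17, the most highly expressed beta gene per length over all libraries, had 5.23, 4.97, 5.33, 4.27 and 5.14 FPKM in Ednrb-/- and 4.27, 4.02, 4.24, 3.86 and 4.25 FPKM in WT. The gap between the lowest Ednrb-/- library and the highest WT library was narrow, and the log2 fold change was 0.24 (SE 0.10, limma adjusted p = 0.109). Pcdhb6 averaged 1.68 ± 0.582 FPKM in Ednrb-/- and 1.03 ± 0.156 FPKM in WT (log2 fold change 0.48, limma adjusted p = 0.108), and its log2 fold change without Ednrb-/- replicate 2 was 0.34 (limma adjusted p = 0.180). Pcdhb22 averaged 2.35 ± 0.440 FPKM in Ednrb-/- and 1.75 ± 0.132 FPKM in WT (log2 fold change 0.33, limma adjusted p = 0.129). Its model overlaps Pcdhb21 over 455 bases on the same strand, and reads there could belong to either gene.

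Pcdhb3 overlapped between genotypes, with 1.57, 1.38, 2.06, 1.93 and 2.36 FPKM in Ednrb-/- and 1.41, 1.28, 1.24, 1.13 and 1.14 FPKM in WT. Ednrb-/- replicate 2 lay within the WT range and the other 4 Ednrb-/- libraries lay above it. The log2 fold change was 0.43 (SE 0.16, limma adjusted p = 0.0802), and the gene passed the test without Ednrb-/- replicate 2, at 0.51 (limma adjusted p = 0.0409). Pcdhb7 averaged 3.13 ± 1.30 FPKM in Ednrb-/- and 2.10 ± 0.118 FPKM in WT, where Ednrb-/- replicate 2 alone had 5.35 FPKM (log2 fold change 0.42, limma adjusted p = 0.175). Without that library the Ednrb-/- mean of Pcdhb7 was 2.58 ± 0.448 FPKM (n = 4) and the log2 fold change 0.23 (limma adjusted p = 0.272). Pcdhb21 averaged 1.28 ± 0.233 FPKM in Ednrb-/- and 0.839 ± 0.220 FPKM in WT (log2 fold change 0.42, limma adjusted p = 0.129).

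The smallest fitted difference in the beta cluster was that of Pcdhb5, with 1.73, 0.499, 2.12, 2.14 and 2.34 FPKM in Ednrb-/- and 1.68, 1.70, 1.58, 1.40 and 1.53 FPKM in WT. Here 4 Ednrb-/- libraries lay above all 5 WT libraries and replicate 2 lay far below them. Pcdhb4 had a similar arrangement in part, with 0.475 FPKM in Ednrb-/- replicate 2 and 0.924 to 1.86 FPKM in the other 4 Ednrb-/- libraries, against 0.707 to 1.11 FPKM in WT. Neither gene was called (limma adjusted p = 0.943 for Pcdhb5 and 0.543 for Pcdhb4), and without Ednrb-/- replicate 2 their log2 fold changes were 0.31 for Pcdhb5 and 0.43 for Pcdhb4 (limma adjusted p = 0.143 and 0.151). The remaining tested beta genes averaged between 1.22 and 2.26 FPKM in Ednrb-/- and between 0.964 and 1.96 FPKM in WT.

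Of the beta genes below the limit, Pcdhb13 had 0.204, 1.18, 0.854, 0.282 and 0.285 FPKM in Ednrb-/- and 0.327, 0.523, 0.754, 0.165 and 0.479 FPKM in WT. It was thus present above 1 FPKM in a single library, Ednrb-/- replicate 2, and overlapped widely between genotypes. Pcdhb14 had 0.433 to 0.741 FPKM in Ednrb-/- and 0.253 to 0.401 FPKM in WT, so the genotypes did not overlap in this gene below the limit either. Its mean was 0.531 ± 0.125 FPKM in Ednrb-/- and 0.338 ± 0.065 FPKM in WT. Pcdhb12 averaged 0.348 FPKM in Ednrb-/- and 0.265 FPKM in WT. Pcdhb1, the gene nearest the alpha cluster, was barely detected, with 5 reads over all Ednrb-/- libraries and 2 over all WT libraries.

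Summed over its 22 genes, the beta cluster came to 34.6, 44.6, 42.4, 36.1 and 38.9 FPKM in Ednrb-/- and 29.6, 30.0, 30.7, 25.6 and 30.0 FPKM in WT. All 5 Ednrb-/- sums lay above all 5 WT sums. The mean sum was 39.3 ± 4.19 FPKM in Ednrb-/- and 29.2 ± 2.07 FPKM in WT (SD, n = 5 each), a ratio of 1.35. The ratio lay between 1.3 (without Ednrb-/- replicate 2) and 1.39 when any library was left out, at 1.33 after rescaling to TPM and at 1.37 for recovered reads scaled to depth. No test was made on a sum over the members.

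**Figure D3:**
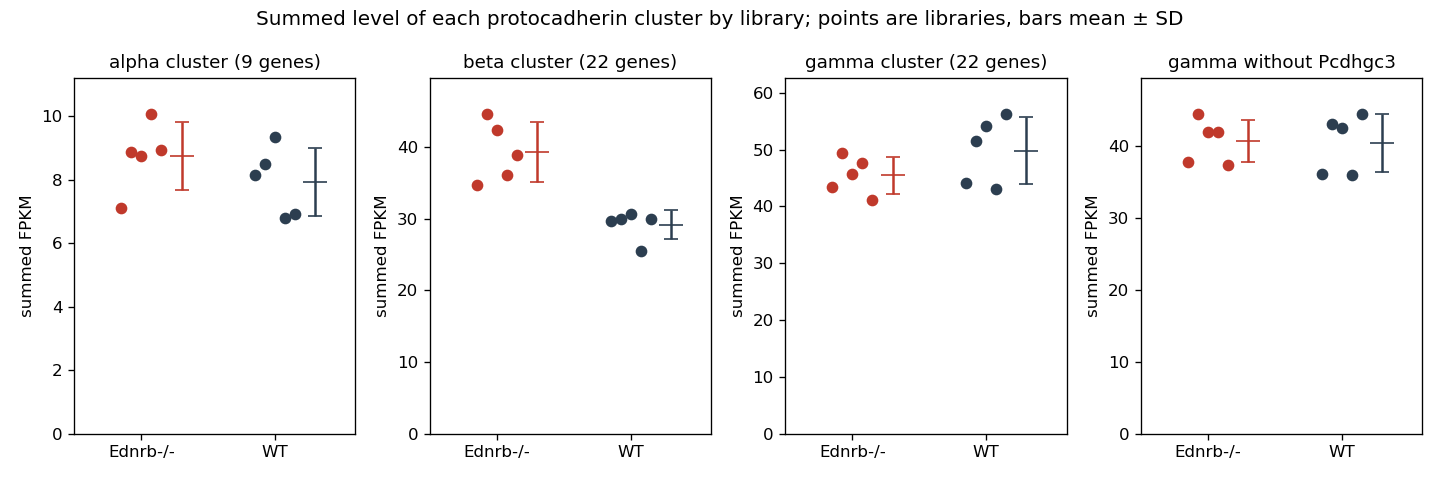
Summed FPKM of the alpha, beta and gamma clusters, and of the gamma cluster without Pcdhgc3, in each library, with Ednrb-/- in red left of WT in dark blue and bars for the mean ± SD (n = 5 each). The beta sums do not overlap between genotypes, the alpha and gamma sums do, and without Pcdhgc3 the gamma means are 40.7 FPKM in Ednrb-/- and 40.5 FPKM in WT.

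Neuronal transcripts were also higher in the Ednrb-/- libraries. Of 20 tested neuron markers 14 rose and 0 fell, where 6.53% of all genes tested rose and 13.0% fell. Their median log2 fold change was 0.51 against 0.00 for all genes. Their summed level was 2298 to 2579 FPKM in Ednrb-/- and 1463 to 1789 FPKM in WT. None of these neuron markers was at 0. Elavl2, a neuronal RNA-binding protein gene, rose to 46.4 ± 2.45 FPKM in Ednrb-/- libraries, against 30.4 ± 3.40 FPKM in WT libraries (limma adjusted p = 0.00276). The part of neuron content in the beta sum was not tested. In bulk libraries, fewer cells of a type and less RNA per cell cannot be told apart.

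Markers of other cell types moved the other way, where 13.0% of all genes tested fell and 6.53% rose. All 10 tested smooth muscle markers fell, summing to 67.0 to 365 FPKM in Ednrb-/- and 400 to 2887 FPKM in WT. Of 9 tested markers of fibroblast-like mesenchyme 8 fell and 1 (Dcn) rose, with sums of 42.6 to 119 FPKM in Ednrb-/- and 107 to 568 FPKM in WT. Among melanocyte markers 6 of 7 fell, with sums of 9.04 to 14.4 FPKM in Ednrb-/- and 57.6 to 197 FPKM in WT. Among markers of glia and Schwann cell precursors 7 of 8 fell and 1 (Fabp7, also listed for neural progenitors) rose. Their summed level overlapped, at 406 to 532 FPKM in Ednrb-/- and 256 to 490 FPKM in WT. Most of that sum was Fabp7, at 427 ± 61.5 FPKM in Ednrb-/- and 268 ± 88.9 FPKM in WT. The sum therefore does not describe the 7 markers that fell. All 3 tested epithelial markers fell too, summing to 1.38 to 16.2 FPKM in Ednrb-/- and 22.2 to 67.9 FPKM in WT. No marker in these lists was at 0 in all libraries, and the part of these cells in the lower Pcdhgc3 level was not tested.

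Neural progenitor markers, which mark the dividing cells of the neural tube, summed to 924 to 1042 FPKM in Ednrb-/- and 902 to 1129 FPKM in WT. Of these 15 markers 1 was higher (Fabp7) and 2 lower (Vim and Nes), against 6.53% and 13.0% of all genes tested. The sum holds large opposite changes. Vim averaged 211 FPKM in Ednrb-/- and 427 FPKM in WT, and Fabp7 averaged 427 FPKM in Ednrb-/- and 268 FPKM in WT. The median log2 fold change of the 15 markers was 0.34, against 0.00 for all genes tested. Endothelial and blood markers were nearly absent: Pecam1, Cdh5, Tek and Tie1 stayed under 0.5 FPKM in every library, and Hba-a1 was listed at 0. The endothelial gene Kdr was the 1 tested endothelial marker and fell, and the 1 tested blood and macrophage marker did not pass.

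Gamma A and gamma B genes, which supply most of the variable exons of the cluster, gave no call. Of 11 tested gamma A genes 6 had a fitted difference above 0, with a median of 0.05 on the log2 scale and a range from -0.20 to 0.36. Of 7 tested gamma B genes 3 lay above 0, with a median of -0.02 and a range from -0.36 to 0.26. The gamma sum was 43.5, 49.4, 45.8, 47.6 and 41.2 FPKM in Ednrb-/- and 44.1, 51.5, 54.2, 43.1 and 56.3 FPKM in WT. These sums overlapped, and their means were 45.5 ± 3.25 FPKM in Ednrb-/- and 49.8 ± 5.95 FPKM in WT (SD, n = 5 each). Without Pcdhgc3 they were 40.7 ± 2.98 FPKM in Ednrb-/- and 40.5 ± 4.04 FPKM in WT, a ratio of 1.01.

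Pcdhga8 was the gamma A gene with the lowest p. It had 1.68, 1.77, 1.56, 1.51 and 1.33 FPKM in Ednrb-/- and 1.09, 1.15, 1.30, 0.905 and 1.10 FPKM in WT. The genotypes did not overlap, but the adjusted p did not pass (log2 fold change 0.36, SE 0.14, limma adjusted p = 0.102). The antisense model Gm37165 overlaps it over 416 bases. The gamma A genes with negative fitted differences included the 2 most highly expressed, Pcdhga3 and Pcdhga2. Pcdhga3 averaged 4.01 ± 0.797 FPKM in Ednrb-/- and 4.63 ± 0.569 FPKM in WT (log2 fold change -0.20, limma adjusted p = 0.393). Pcdhga2 averaged 3.27 ± 0.698 FPKM in Ednrb-/- and 3.34 ± 0.205 FPKM in WT (log2 fold change -0.05, limma adjusted p = 0.853). Pcdhga7 (2.26 FPKM in Ednrb-/- and 2.65 FPKM in WT) and Pcdhga5 (2.33 FPKM in Ednrb-/- and 2.65 FPKM in WT) did not pass either.

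Pcdhgb6 was the highest gamma B gene, with 5.45, 6.51, 5.84, 4.87 and 5.12 FPKM in Ednrb-/- and 3.80, 5.60, 4.07, 4.29 and 5.22 FPKM in WT. The genotypes overlapped, since WT replicates 2 and 5 lay within the Ednrb-/- range (log2 fold change 0.26, limma adjusted p = 0.197). Pcdhgb4 had the lowest fitted difference of the gamma B genes, with means of 1.26 ± 0.485 FPKM in Ednrb-/- and 1.69 ± 0.224 FPKM in WT (log2 fold change -0.36, limma adjusted p = 0.268). Pcdhgb2 averaged 2.19 FPKM in Ednrb-/- and 2.39 FPKM in WT, and Pcdhgb5 averaged 1.46 FPKM in Ednrb-/- and 1.54 FPKM in WT. Pcdhga10 was barely detected, with 16 reads over all Ednrb-/- libraries and 16 over all WT libraries.

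Alpha genes gave no call either, and 6 of the 7 alpha genes other than the C-type were tested. Their fitted differences ran from -0.09 to 0.28 on the log2 scale with a median of 0.12, and 4 of the 6 lay above 0. The 95% intervals of the 6 genes' differences had bounds between -0.49 and 0.66. Pcdha3, the highest alpha gene, had 1.46, 1.14, 1.30, 1.71 and 1.48 FPKM in Ednrb-/- and 1.46, 1.503, 1.78, 1.20 and 1.26 FPKM in WT. The genotypes lay over each other (log2 fold change -0.02, limma adjusted p = 0.953). The alpha gene with the lowest p was Pcdha5, at 1.08 ± 0.242 FPKM in Ednrb-/- and 0.796 ± 0.136 FPKM in WT (log2 fold change 0.28, limma adjusted p = 0.300). Pcdha12 averaged 1.33 FPKM in Ednrb-/- and 1.07 FPKM in WT, Pcdha9 averaged 1.20 FPKM in Ednrb-/- and 1.05 FPKM in WT, and Pcdha7 averaged 1.47 FPKM in Ednrb-/- and 1.34 FPKM in WT.

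The alpha sum was 7.09, 8.86, 8.74, 10.1 and 8.94 FPKM in Ednrb-/- and 8.14, 8.48, 9.33, 6.80 and 6.93 FPKM in WT. These sums overlapped, with means of 8.74 ± 1.07 FPKM in Ednrb-/- and 7.94 ± 1.07 FPKM in WT (SD, n = 5 each). Further alpha models of the locus carry an identifier in place of a symbol in the table and so are not in the sum.

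The spread between libraries was smaller in the family than in genes at similar levels, and the share with a larger spread in Ednrb-/- was close. The SD of log2(FPKM + 0.5) was larger in Ednrb-/- in 32 of the 45 tested members (71.1%), against 60.7% of all genes and 69.7% of genes in the members' range of mean FPKM. Without Ednrb-/- replicate 2 it was larger in 28 of the 45 (62.2%), against 60.8% of genes in that range. The median SD over the members was 0.24 in Ednrb-/- (0.21 without replicate 2) and 0.18 in WT. In genes in the members' range of mean FPKM the medians were 0.36 in Ednrb-/- and 0.27 in WT. Over all genes they were 0.255 in Ednrb-/- and 0.223 in WT. The profile of levels over the 53 genes had a Spearman rank correlation of 0.658 to 0.895 between pairs of Ednrb-/- libraries (0.831 to 0.895 without replicate 2) and 0.883 to 0.937 between pairs of WT libraries, given as a description, since the genes share libraries and lengths. Pairs of an Ednrb-/- and a WT library reached 0.745 to 0.932. A gene's level had little relation to its place within the cluster, with a Spearman rank correlation of -0.05 for alpha, 0.28 for beta and -0.16 for gamma.

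**Figure D4:**
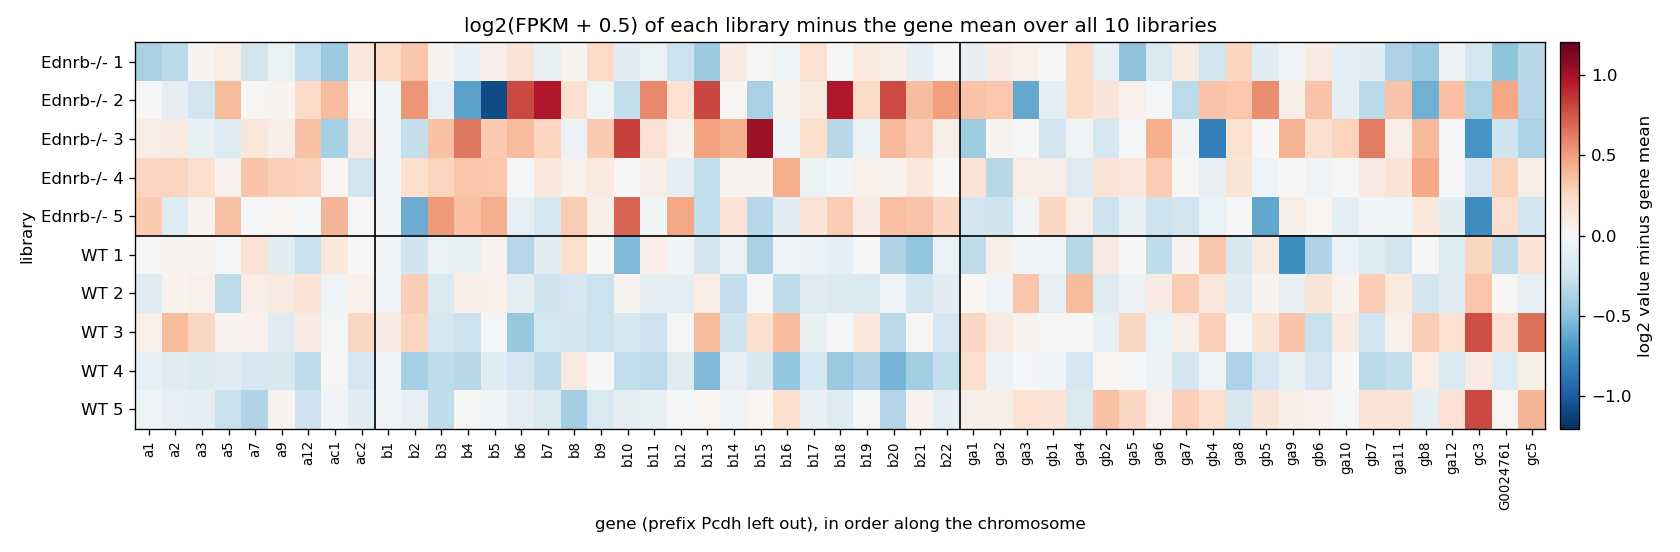
Colour gives log2(FPKM + 0.5) of each of the 53 genes in each library minus that gene's mean over all 10 libraries (red above, blue below), with the 5 Ednrb-/- libraries above the 5 WT libraries and genes in chromosome order. Ednrb-/- replicates 2 and 3 hold most of the strongest colours, many of them in beta genes, and the Pcdhgc3 column is blue in all 5 Ednrb-/- libraries and red in the WT libraries except for a near-white replicate 4.

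Nonclustered protocadherins and the related Fat, Dachsous and Celsr genes encode larger or separately located members of the cadherin superfamily. They gave 0 higher and 4 lower of 18 tested, with a median log2 fold change of -0.20. Over all genes tested, 6.53% were higher and 13.0% lower. Pcdh1, an adhesion gene at the far side of the locus, fell to 3.30 ± 0.635 FPKM in Ednrb-/-, against 11.5 ± 4.91 FPKM in WT (log2 fold change -1.58, limma adjusted p = 0.00322). Fat1, an atypical cadherin of migrating and epithelial cells, fell to 13.7 ± 5.15 FPKM in Ednrb-/-, against 46.1 ± 20.3 FPKM in WT (limma adjusted p = 0.00505). Pcdh18 fell to 8.15 FPKM in Ednrb-/-, against 17.1 FPKM in WT (limma adjusted p = 0.00728), and Pcdh7 fell to 9.14 FPKM in Ednrb-/-, against 15.3 FPKM in WT (limma adjusted p = 0.0471). The call of Pcdh7 was lost in 13 of the 19 alternatives, among them 8 of the 10 fits that left out 1 library, with adjusted p up to 0.111, and it was kept without Ednrb-/- replicate 4 or WT replicate 2.

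Genes that act in protocadherin promoter choice and silencing gave no call among 15 tested by limma. The list held 17 genes, but Dnmt3b and Setdb1 were not matched by symbol, so this count does not cover them. The tested genes gave 0 at an unadjusted p under 0.05 and 0 by voom on recovered reads. Of all genes tested by limma, 19.5% were called and 33.1% had an unadjusted p under 0.05. Ctcf, which binds the variable promoters and their enhancers, averaged 42.1 ± 2.81 FPKM in Ednrb-/- and 37.7 ± 4.06 FPKM in WT (limma adjusted p = 0.225). The cohesin subunit gene Smc3 averaged 39.0 FPKM in Ednrb-/- and 35.3 FPKM in WT, and the DNA methyltransferase gene Dnmt1 averaged 50.0 FPKM in Ednrb-/- and 58.4 FPKM in WT. Smchd1, a silencing factor of the locus in mice, averaged 6.34 FPKM in Ednrb-/- and 6.80 FPKM in WT.

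Of 19 tested genes for signalling and trafficking partners 3 fell and 0 rose, with a median log2 fold change of -0.14. By comparison, 13.0% of all genes tested fell and 6.53% rose. Cyfip1, a subunit of the WAVE complex that some protocadherins recruit, fell to 6.27 ± 1.05 FPKM in Ednrb-/-, against 10.9 ± 1.67 FPKM in WT (limma adjusted p = 0.00492). Snx33, a sorting nexin gene, fell to 2.56 FPKM in Ednrb-/-, against 5.29 FPKM in WT (limma adjusted p = 0.0110). Psen2, a subunit of the gamma-secretase that cleaves protocadherins, fell to 1.10 FPKM in Ednrb-/-, against 1.98 FPKM in WT (limma adjusted p = 0.0281), but its call was lost in 7 of the 19 alternatives, with adjusted p up to 0.0860. These were leaving out Ednrb-/- replicate 5 or WT replicate 1, 3 or 5, no limit on low values, quantile normalization and the replicate number as a block. Adam10, the protease that sheds them, averaged 53.5 FPKM in Ednrb-/- and 70.9 FPKM in WT (limma adjusted p = 0.0556).

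Among 19 tested genes beside and between the clusters 2 rose and 3 fell, with a median log2 fold change of 0.08. The shares over all genes tested were 6.53% higher and 13.0% lower. Taf7, a transcription factor IID subunit gene that lies between the beta and gamma clusters, rose to 14.1 ± 2.91 FPKM in Ednrb-/-, against 9.70 ± 1.56 FPKM in WT (log2 fold change 0.51, limma adjusted p = 0.0288). Tmco6 rose as well (log2 fold change 0.60, limma adjusted p = 0.0228). Both calls were lost without any of Ednrb-/- replicates 3 and 5 and WT replicates 3, 4 and 5, with adjusted p up to 0.0754 for Taf7 and 0.0627 for Tmco6, and that of Tmco6 also without Ednrb-/- replicate 2. Taf7 was also lost with no limit on low values and with the replicate number as a block, with adjusted p up to 0.0878. Pcdh1, Gnpda1 and Arap3 fell. The call of Gnpda1 (limma adjusted p = 0.0431) was lost without any of the libraries except Ednrb-/- replicate 5 and WT replicate 2, with adjusted p up to 0.106, and also with no limit, after quantile normalization and by voom, with adjusted p up to 0.107. Diaph1, a formin gene that follows the gamma cluster, averaged 11.2 FPKM in Ednrb-/- and 11.9 FPKM in WT (limma adjusted p = 0.647), and Slc25a2, between the beta and gamma clusters, averaged 0.614 FPKM in Ednrb-/- and 0.554 FPKM in WT.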

How the data were processed

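Libraries were made from total RNA of neural tube explants. Gene values were deposited by the authors as FPKM beside gene lengths, per the file headers; fastp, HISAT2 2.0.5, featureCounts 1.5.0-p3 and the build mm10 are named in the submitters' processing notes. Gene identifiers, however, are those of the C57BL/6NJ assembly, so coordinates are given as deposited; the sources used here do not give strand or multi-mapping settings. FPKM times gene length, with a divisor fitted per library, gave whole reads (within 0.01 of a read) for 100% of values in every library. There were 13022266 to 19532570 reads per library, and these reads served for the voom alternative. The divisor was 1 to 1.023 times those reads in Ednrb-/- libraries and 0.9531 to 1.032 times in WT libraries. Why the divisor differed from the reads was not tested.

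Genes with at least 0.5 FPKM in at least 5 of 10 libraries were tested as log2(FPKM + 0.5) with limma 3.58.1 (trend, R 4.3.3), Ednrb-/- minus WT, without covariates, and p-values were adjusted by Benjamini-Hochberg over all genes tested; fold changes on this scale understate those of low genes. Exact permutation tests used all splits of 5 against 5 libraries. The p-values measure the spread between these libraries. The members, gene lists and tests were chosen with earlier results of these data known. Named were, in each cluster, the up to 4 tested genes with the lowest p, the 2 highest in mean FPKM and all C-type genes, and up to 4 of each context list; Pcdhb4, Pcdhb5, Pcdhb7, Pcdhb21, Pcdhb22, Smchd1, Slc25a2, Diaph1, Gnpda1 and the genes below the limit were named after their values were seen. Alternatives were other pseudocounts, limits, TPM and quantile scaling, voom, array weights, a replicate block and leaving out each library; the spread and profile without Ednrb-/- replicate 2 were added after seeing the data. Sequences are not printed.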

Additional observations from a re-analysis of the deposited data

Results flagged for a closer look

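In 118 groups of 5 values (each gene, and each cluster sum, in each genotype), 9 had a library far from the other 4 by Dixon's criterion, 7 in Ednrb-/- and 2 in WT; chance gives about 1 in 20 groups. Ednrb-/- replicate 2 had 2.62 FPKM of Pcdhga3, against 4.12 to 4.57 FPKM in the other Ednrb-/- libraries, and 2.29 FPKM of Pcdhga12, against 1.48 to 1.67 FPKM. Ednrb-/- replicate 3 had 2.77 FPKM of Pcdhb15 (others 0.712 to 1.14 FPKM), 2.42 FPKM of Pcdhga9 (others 1.61 to 1.80 FPKM) and 0.15 FPKM of Pcdhga10 (others up to 0.039 FPKM). Ednrb-/- replicate 4 had 2.20 FPKM of Pcdhb16, against 1.32 to 1.56 FPKM in the other Ednrb-/- libraries. Pcdhb1 was above 0 in Ednrb-/- replicate 1, at 0.0976 FPKM, and in WT replicate 3, at 0.0492 FPKM, and listed at 0 in the other 8 libraries. The beta sum of WT replicate 4 was 25.6 FPKM, against 29.6 to 30.7 FPKM in the other WT libraries.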

How the results depend on the processing

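Pcdhgc3 and Pcdhb20 were called in the same direction under all 19 alternatives. The family's higher calls numbered 7 after quantile normalization (Pcdhb20, Pcdhb3, Pcdhb9, Pcdhb17, Pcdhb21, Pcdhb22 and Pcdhga8), 4 with array weights (Pcdhb20, Pcdhb3, Pcdhb17 and Pcdhga8) and 1 to 2 when 1 library was left out. Quantile normalization moved the median of all genes to 0.10 and its split of calls to 1603 higher and 1730 lower, against 990 and 1966 as reported. Higher calls over all genes numbered 659 with no limit on low values, 1684 with array weights and 511 to 1151 when 1 library was left out (lower 1385 to 2089). Same-numbered libraries did not deviate together (correlations -0.163 to 0.153). The labels do not say whether same-numbered samples were prepared together, and these correlations cannot exclude it. With the replicate block 419 genes were higher and 1458 lower, with Pcdhgc3 at limma adjusted p = 0.0371 and Pcdhb20 at 0.0227. Every Ednrb-/- sample correlated best with a WT sample of another number.

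Genes near 0 changed sign. After quantile normalization the log2 fold change was 0.16 for Pcdha3, 0.0933 for Pcdhga2, 2.19e-05 for Pcdhga5, 0.0602 for Pcdhgb2 and 0.0518 for Pcdhgb5; Pcdha3 had 0.0218 by voom and 0.0646 with array weights. Leaving out 1 library gave -0.0347 to 0.0767 for Pcdhac2, -0.0707 to 0.0414 for Pcdha3, -0.135 to 0.0315 for Pcdhga2, -0.255 to 0.0408 for Pcdhgb5 and -0.0172 to 0.219 for MGP_C57BL6NJ_G0024761. Calls among context lists moved too. Partners gave 1 higher and 5 lower with array weights. Genes beside the clusters gave 1 higher with no limit, 1 with the replicate block, 4 by voom and 5 with array weights, and 5 lower with a limit of 0.1 FPKM. When 1 library was left out, nonclustered protocadherins gave 0 to 1 higher, partners 0 to 2 higher and 2 to 5 lower, and genes beside the clusters 0 to 5 higher. The cause of these shifts was not tested. With few reads per gene and a median standard error of 0.17, small differences in this family were not detectable.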
